A study of Mus musculus with 27 samples.

Results

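The DNA replication genes are 38 genes whose proteins license, unwind, copy and rejoin DNA in S phase. They were picked by symbol from the 37310 genes of the expression table by a rule that uses no measured value, though with earlier results of these data known, and all 38 were found and tested. Expression was measured by RNA-seq in mouse embryonic fibroblasts (MEFs), primary cultures grown from single mid-gestation embryos that were sexed by genotyping and used at low passage. The 4 groups were female wild-type, female *Firre* KO, male wild-type and male *Firre* KO MEFs, with 3 replicates each. The KO allele, given as *Firre*-/- in the labels, lacks the whole X-linked *Firre* gene, which encodes a long noncoding RNA, after recombination between a pair of loxP cassettes in the mouse line. No treatment or transgene was given for any of the 12 libraries. Neither the labels nor the methods say whether the replicates of a group were different embryos, so p-values measure only the spread between these samples, which may be technical.

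Replication begins with licensing, in which *Cdc6* and *Cdt1* help to load the ring of *Mcm2* to *Mcm7* on DNA before S phase. *Cdc45* and the GINS complex then turn this ring into a running helicase, primase and the polymerases copy the strands, the *Pcna* clamp holds the polymerases on DNA, and nucleases and ligase join the fragments of the lagging strand. Many of these genes are known targets of E2F transcription factors, and their RNA is known to be higher in cycling than in resting fibroblasts.

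Every library held between 42986516 and 65454660 expected counts, and every male library was deeper than every female one. The lowest count of any replication gene in any library was 269. *Firre* had 90 to 129 expected counts in the female wild-type, 239 to 307 in the male wild-type and 0 in each of the 6 KO libraries. All 10 fibroblast markers were detected in all libraries, at a summed level of 16500 to 20300 CPM, the counts of a gene scaled to a common library size, in female and 19400 to 24600 CPM in male MEFs.

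Levels can be compared between genes only per length, and approximate TPM, which scale a gene's counts by its exon length and by the library, were computed from the merged exon length. On this scale the 38 genes spanned a 34.0-fold range around a median of 28.3 TPM. The highest were both subunits of ribonucleotide reductase, which makes deoxynucleotides, and the sliding clamp. *Rrm2* lay between 202 and 320 TPM, *Rrm1* between 182 and 277 TPM, and *Pcna* between 150.0 and 194 TPM over the 12 libraries. These 3 genes were well apart from the rest, as the plot of levels shows. The lowest were the loading factor *Cdc6*, at 9.52 to 15.6 TPM, the initiation factor *Mcm10*, at 8.22 to 11.9 TPM, and the GINS subunit *Gins3*, at 6.57 to 10.4 TPM. The ranges of these 3 genes overlapped.

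**Figure D1:**
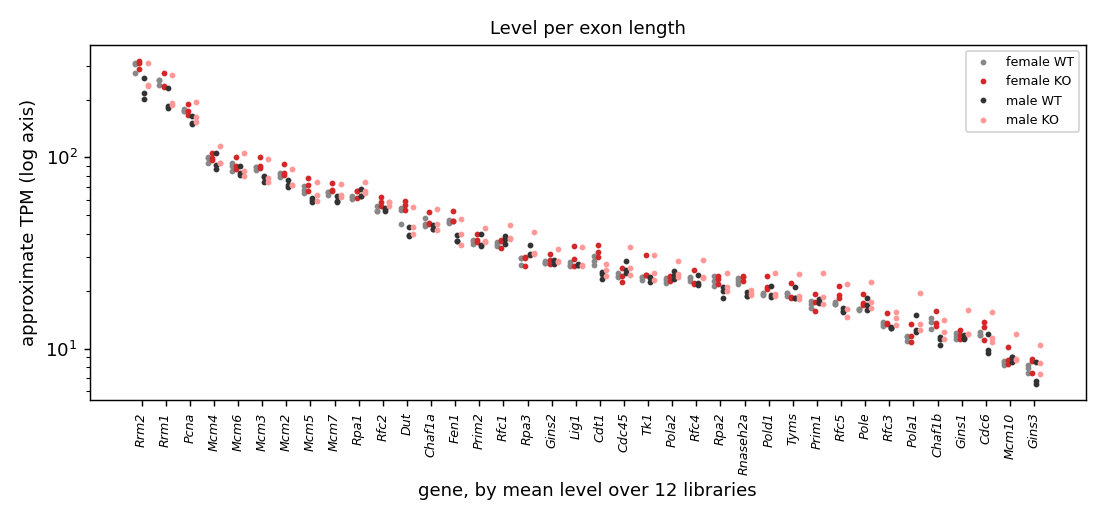
Approximate TPM (log axis) of each of the 38 DNA replication genes in the 12 libraries, ordered by the mean over libraries, with 1 point per library coloured by sex and genotype. *Rrm2*, *Rrm1* and *Pcna* are highest, and *Gins3* has the lowest mean, 8.05 TPM.

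To ask whether loss of *Firre* changed the replication genes, KO was compared with wild-type MEFs within each sex. None of the 38 genes passed an adjusted p under 0.05 in edgeR's quasi-likelihood test in female MEFs, where 0.013% of the 15387 genes tested passed, or in male MEFs, where 0.0065% passed. Nor did any pass in the effect averaged over the sexes (0.0195% of all genes) or in the difference of the KO effect between the sexes (0.0%, which is 0 genes; 491 had an unadjusted p under 0.05). DESeq2 also called 0 replication genes in each of these comparisons. At an unadjusted p under 0.05 the counts were 4 of 38 in female MEFs (7.55% of all genes), 2 in male MEFs (2.06%), 11 for the averaged effect (6.24%) and 0 for the difference between the sexes (3.19%).

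All 38 log2 fold changes were nevertheless above 0 in female MEFs, compared with 49.9% of all genes tested, and all 38 were above 0 in male MEFs, compared with 47.7%. Averaged over the sexes this was also so for all 38, against a background of 48.8%. The sizes were small. Their median was 0.093 in female, 0.113 in male and 0.112 in the averaged effect (log2), with medians of -0.0, -0.004 and -0.002 over all genes tested. Single genes ranged from 0.03 to 0.21 in female MEFs and from 0.03 to 0.26 in male MEFs, with SEs of 0.047 to 0.14 in both. The upper 95% limits reached 0.44 in female and 0.53 in male MEFs, so larger rises of any member lay outside its interval. The size in 1 sex did not follow that in the other (r = 0.03 across the 38 genes, which are not independent replicates).

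**Figure D2:**
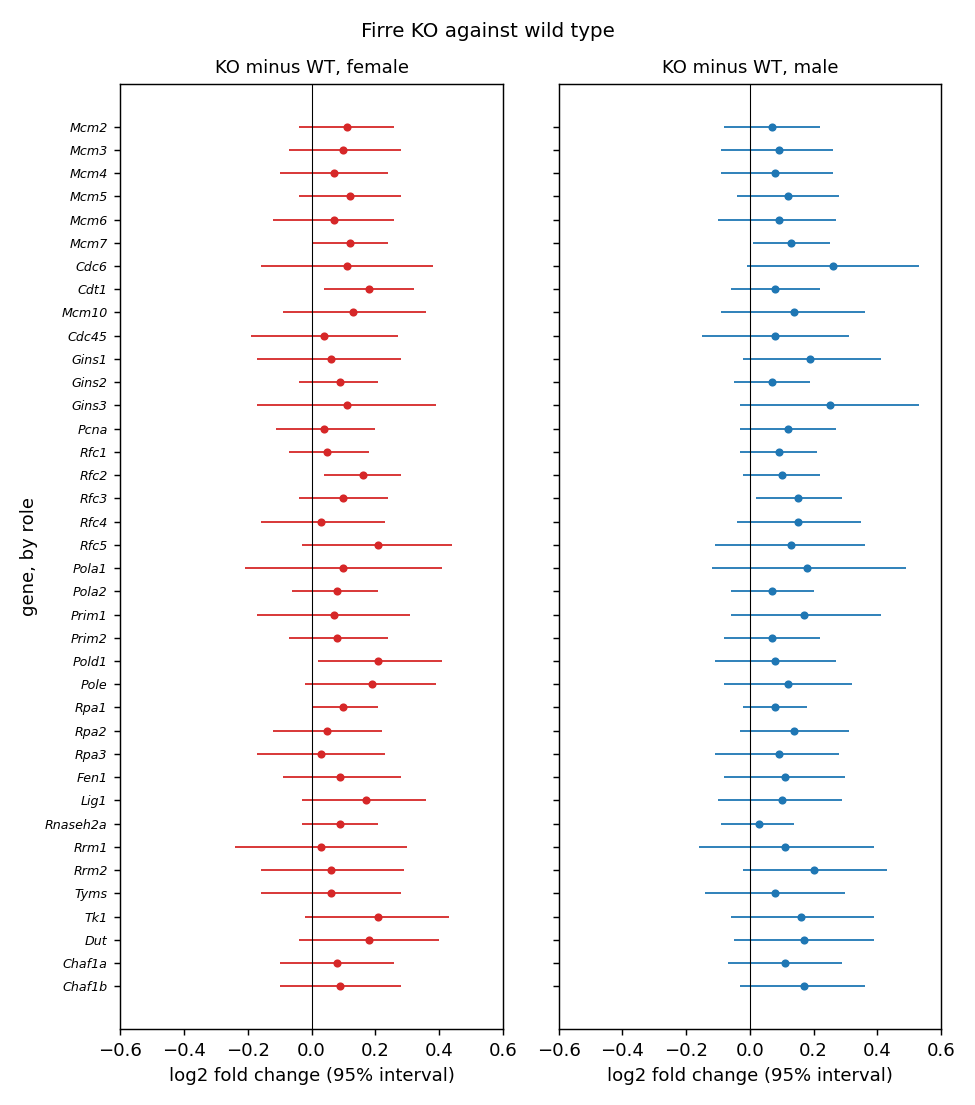
Log2 fold change of *Firre* KO over wild type for the 38 DNA replication genes, grouped by role, in female (left) and male (right) MEFs; points are estimates of the fit with 3 libraries per group and bars are 95% intervals. All points lie above 0, and no gene passed an adjusted p under 0.05.

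The sign counts rested in part on 1 KO library of each sex. Female KO replicate 2 lay above the mean of its own group for 38 of 38 genes, with a median difference of 0.116 (log2 CPM), and was the highest of its group for 35. Male KO replicate 3 lay above its group mean for 36 of 38, with a median of 0.187, and was likewise the highest of its group for 36. The highest of all 12 values was in female KO replicate 2 for 22 genes and in male KO replicate 3 for 15. Without female KO replicate 2 the female log2 fold change was above 0 for 32 of 38 genes with a median of 0.037, against 50.0% of all genes. Without male KO replicate 3 the male one was above 0 for 26 of 38 with a median of 0.023, against 48.3%. The averaged effect was then above 0 for 36 of 38 with a median of 0.059, with female KO replicate 2 still included. Both libraries were singled out after their values were seen.

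Within the wild type, female replicate 2 (37 of 38 genes above the group mean, median 0.047) and male replicate 3 (31 of 38, median 0.062) stood out in the same direction. Other measures moved with some of these libraries. Male wild-type replicate 3 and male KO replicate 3 were the shallowest male libraries, with 53684288 and 51521907 expected counts, and had the lowest summed fibroblast markers among male MEFs, 19700 and 19400 CPM against 23200 to 24600 CPM in the other four. *Fn1* made up much of that sum, with 8000 and 7370 CPM against 10700 to 11100 CPM, whereas *Pdgfra* (56.1 CPM), *Postn* (560.0 CPM) and *Col3a1* (629 CPM) had their highest male values in male KO replicate 3. Female KO replicate 2 had the highest sum of 10 macrophage markers, 121 CPM, compared with 39.2 to 88.8 CPM in the other female libraries, whereas female wild-type replicate 2, at 50.2 CPM, was among the lowest. All 10 were detected in every library. Markers of other cells also moved between KO and wild type, though none passed the test. In female MEFs 1 of 7 epithelial markers had a log2 fold change above 0 (median -1.218), and *Krt5*, *Krt14* and *Cdh1* were highest in female wild-type replicate 3, at 14.3, 17.1 and 4.43 CPM. In male MEFs 5 of 7 epithelial markers were above 0 (median 0.214), compared with 0 of 6 neural (median -0.467), 1 of 8 skeletal muscle (median -0.319) and 2 of 6 endothelial markers (median -0.333). The part of depth or of other cells in the result was not tested. In bulk RNA, fewer cells in S phase and less RNA per cell cannot be told apart.

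**Figure D3:**
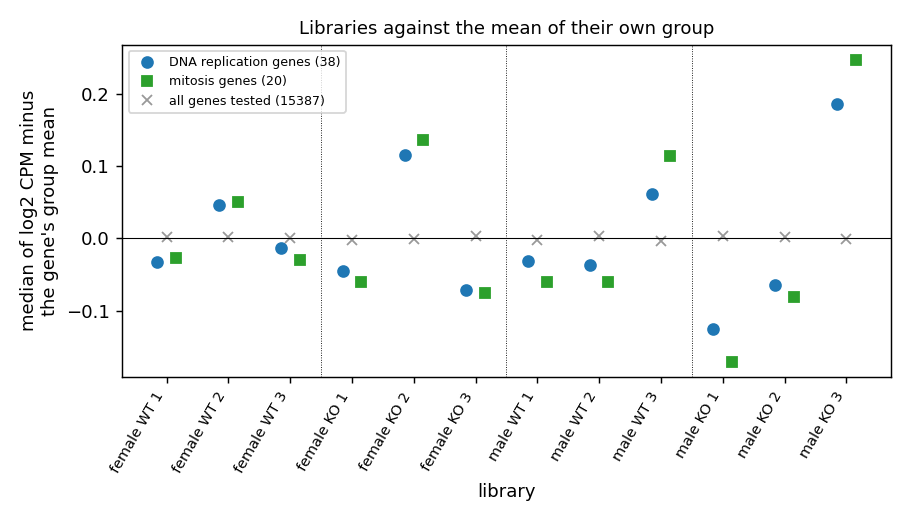
Median over genes of log2 CPM minus the gene's mean in its own group, for each of the 12 libraries; circles are the 38 DNA replication genes, squares 20 mitosis genes and crosses all 15387 genes tested. Female KO replicate 2 (0.116) and male KO replicate 3 (0.187) are highest for the replication genes, and the mitosis genes have the same sign as the replication genes in each library.

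Among the 8 licensing genes, the median log2 fold change was 0.11 in female and 0.086 in male MEFs. *Cdt1*, the loading factor that geminin holds in check, had 21.5, 22.9 and 23.4 CPM in female wild-type and 25.2, 27.6 and 24.1 CPM in female KO MEFs. The groups did not overlap, and the log2 fold change of 0.18 ± 0.064 (SE) had an adjusted p of 0.572 in edgeR's test. *Cdc6* had 18.1, 17.5 and 21.6 CPM in male wild-type and 20, 21.0 and 27.6 CPM in male KO MEFs, a log2 fold change of 0.26 ± 0.12 that was the largest of the 38 in male MEFs. Its groups overlapped, its adjusted p was 1.0 in edgeR's test, and the value fell to 0.11 without male KO replicate 3. *Mcm7*, a subunit of the helicase ring, was apart between the female groups, with 100 to 105 CPM in wild-type and 108 to 119 CPM in KO MEFs. Its exons share 321 bases with *Ap4m1* on the other strand, and reads of such overlaps cannot be told apart without strand.

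For the 5 genes of helicase activation the medians were 0.087 and 0.135. *Gins3* had 5.75, 5.58 and 7.11 CPM in male wild-type and 6.26, 7.16 and 8.52 CPM in male KO MEFs. This log2 fold change of 0.25 ± 0.13 was 0.13 without male KO replicate 3. At the other end, *Gins2*, whose annotated exons share 2758 bases with *Gse1* on the opposite strand, had 41.3, 40 and 41.4 CPM in male wild-type and 41.1, 41.7 and 45.9 CPM in male KO MEFs, a log2 fold change of 0.07 ± 0.056 that was 0.02 without male KO replicate 3. *Gins1*, which encodes another subunit of the complex, was apart between the male groups, at 5.96 to 6.29 CPM in wild-type and 6.36 to 8.23 CPM in KO MEFs.

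The clamp and its loader, 6 genes, had medians of 0.077 and 0.124. *Rfc5*, a subunit of the loader RFC, had 28.7, 29.5 and 27.9 CPM in female wild-type and 30.8, 35.9 and 32.6 CPM in female KO MEFs. All KO values were higher, and the log2 fold change of 0.21 ± 0.11 was among the largest in female MEFs and became 0.14 without female KO replicate 2. Its exons share 499 bases with *Wsb2* on the opposite strand. *Rfc3* was the 1 gene whose KO values were above all wild-type values in both sexes, with 17 to 17.5 CPM against 17.6 to 20.1 CPM in female and 16.1 to 16.5 CPM against 16.9 to 19.2 CPM in male MEFs.

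The 6 polymerase and primase genes had medians of 0.094 and 0.1. *Pold1*, the catalytic subunit of polymerase delta, had 33.4, 33.5 and 33.2 CPM in female wild-type and 37.0, 42.4 and 36.7 CPM in female KO MEFs. The 3 wild-type values were nearly equal and all KO values were higher, but the log2 fold change of 0.21 ± 0.089 had an adjusted p of 0.625 in edgeR's test. *Pola1*, the catalytic subunit of polymerase alpha and the 1 replication gene on chromosome X, had 38.8, 37.9 and 45.8 CPM in male wild-type and 38.8, 41.8 and 58.5 CPM in male KO MEFs. It had the widest spread within groups of the 38 genes, with an SD of 0.195 (log2 CPM), and male KO replicate 3 was its highest value.

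Of the single-strand binding complex RPA, *Rpa3* had 11.1, 12.2 and 11.8 CPM in female wild-type and 12.4, 12.3 and 11.2 CPM in female KO MEFs. This log2 fold change of 0.03 ± 0.092 was among the lowest in female MEFs, and the groups overlapped. It ran from -0.0 without female wild-type replicate 1 to 0.08 without female KO replicate 3. *Rpa1*, the large subunit, had the narrowest spread within groups, an SD of 0.056, and its KO values in female MEFs (125 to 136 CPM) lay just above those of the wild type (121 to 124 CPM).

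The 3 genes that act on Okazaki fragments encode the nuclease *Fen1*, the ligase *Lig1* and *Rnaseh2a*, the catalytic subunit of RNase H2. *Rnaseh2a* had 24.5, 23.3 and 23.0 CPM in male wild-type and 24.3, 25.1 and 22.6 CPM in male KO MEFs, which was the lowest log2 fold change in that sex, 0.03 ± 0.053. It became -0.01 without male KO replicate 2. In nucleotide supply, *Rrm1* had 361, 367 and 334 CPM in female wild-type and 338, 402 and 346 CPM in female KO MEFs, and its log2 fold change of 0.03 ± 0.12 turned to -0.05 without female KO replicate 2 and to -0.01 without female wild-type replicate 3. Thymidine kinase *Tk1* was at 41.4 to 44.4 CPM in female wild-type and 45.5 to 58.1 CPM in female KO MEFs. The chromatin assembly subunits *Chaf1a* and *Chaf1b*, which deposit histones behind the fork, had log2 fold changes of 0.08 and 0.09 in female and 0.11 and 0.17 in male MEFs.

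In female MEFs all KO values were above all wild-type values for 10 of the 38 genes (*Mcm7*, *Cdt1*, *Rfc3*, *Rfc5*, *Pola2*, *Pold1*, *Pole*, *Rpa1*, *Tk1* and *Dut*), compared with 10.9% of all genes tested. In male MEFs this held for 3 (*Gins1*, *Rfc2* and *Rfc3*), compared with 2.78%. The reverse order was seen for 0 of 38 in either sex, compared with 8.2% of all genes in female and 2.52% in male MEFs.

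**Figure D4:**
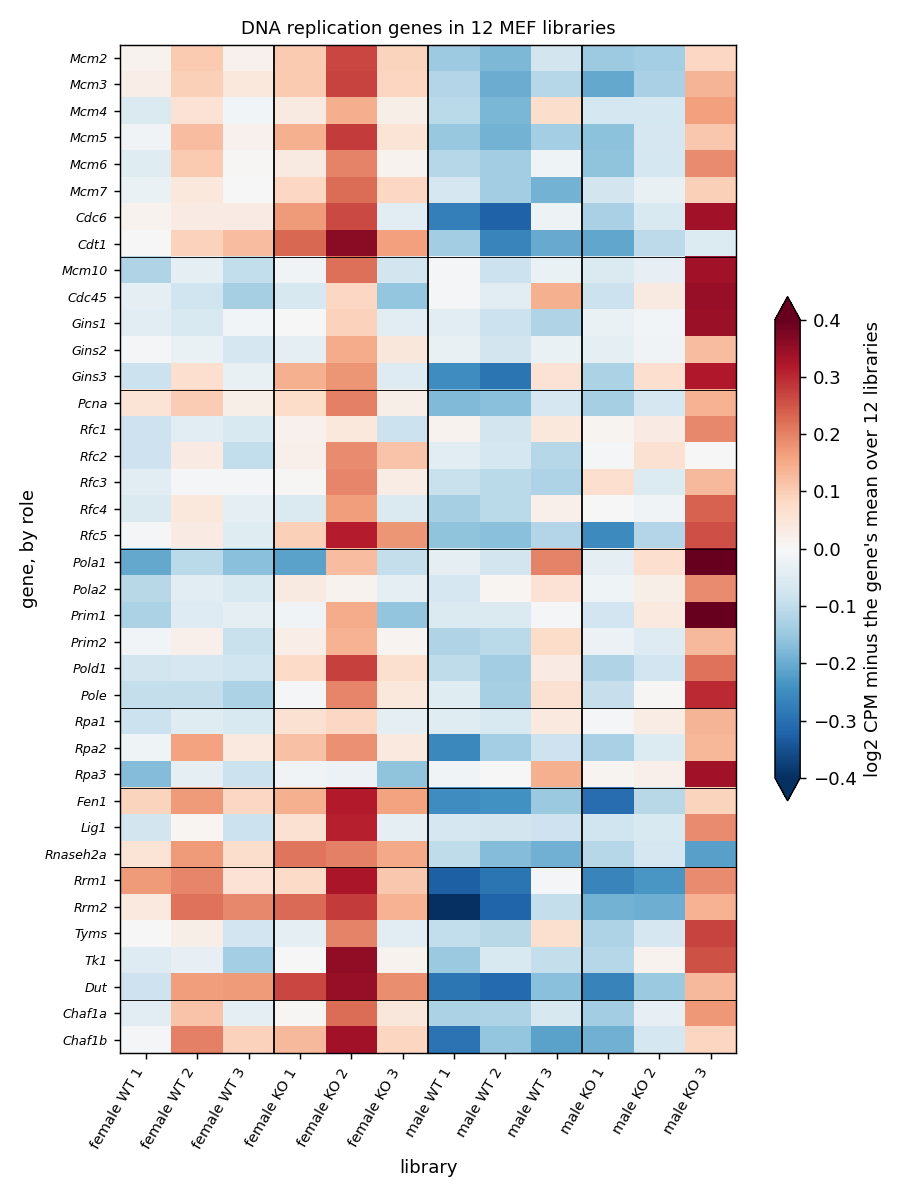
Log2 CPM of each of the 38 DNA replication genes in each of the 12 libraries, minus the gene's mean over all libraries (colour scale, clipped at 0.4 in either direction); rows are grouped by role and columns by sex and genotype. The columns of female KO replicate 2 and male KO replicate 3 are red for most genes.

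The replication genes varied together over the libraries. After each gene's log2 CPM was centred on its group mean, the median correlation over the 703 pairs was 0.81 across the 12 libraries, with a range from -0.53 to 0.99. Of the pairs, 94.2% were above 0 and 54.6% above 0.8, whereas the median over all pairs of genes tested was -0.0. The points share library, depth and sample preparation, so these values are a description. They also rest on the libraries named above, since the median was 0.66 without male KO replicate 3 and 0.49 without that library and female KO replicate 2.

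Correlated with the mean of the other members, 33 of the 38 genes reached 0.8 or more and 20 reached 0.9 or more. The closest were *Mcm6* (r = 0.99), *Pcna* (0.98) and *Mcm2* (0.98). The 5 below 0.8 were *Mcm7* (0.73), *Cdt1* (0.7), *Rfc3* (0.64), *Rfc2* (0.2) and *Rnaseh2a* (-0.36). *Rnaseh2a* was the 1 gene with a negative value. It had its lowest CPM of the 12 libraries in male KO replicate 3, where 36 of the 38 genes were above their group mean, and its exons share 177 bases with *Prdx2* on the opposite strand. For comparison, 5.12% of all genes tested, the members included, had an r above 0.8 with the mean of the members.

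The 20 mitosis genes, which act after S phase, moved with the replication genes. Their own median pairwise correlation was 0.93 and that between them and the replication genes 0.86. They lay above the group mean for 20 of 20 genes in female KO replicate 2 (median 0.137) and male KO replicate 3 (median 0.248), and for 20 and 18 of 20 in the wild-type libraries that stood out. Among 41 other replication genes the median correlation was 0.58, among 23 genes of the E2F and Rb families and S phase cyclins 0.1, and among 7 inhibitors of cyclin-dependent kinases -0.42.

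The promoters of the members are shown as reference sequence. RefSeq promoters from 250 bases before to 50 bases after the start (GRCm38.p6) were given for 32 of the 38 genes, the others being *Gins1*, *Gins2*, *Mcm4*, *Pole*, *Prim2* and *Rfc2*. These 300 bases were searched on both strands for the E2F words TTTCCCGC, TTTGGCGC, TTTCGCGC and TTTGCCGC, which can overlap each other. At least 1 word was found for 11 of 32 genes (34.4%), namely *Cdc6*, *Cdt1*, *Gins3*, *Lig1*, *Mcm3*, *Mcm5*, *Mcm6*, *Mcm7*, *Pola1*, *Pold1* and *Rfc3*, compared with 704 of all 27025 genes in the table (2.6%). The box CCAAT was found for 20 genes (62.5%), compared with 41.1% of all genes, and TTTGAA, the core of the cell cycle homology region, for 4 (12.5%), compared with 20.2%. A match is a description of the letters and not of binding.

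The 200 bases before the RefSeq start are printed below for 4 genes that hold an E2F word in this stretch and for *Mcm2*, which holds none of these words. Other forms of the E2F site were not searched. Each was matched exactly to a single place on its own chromosome in mm9, with no annotated exon base. Other chromosomes and the opposite strand were not searched. Sequences are written 5′ to 3′ on the strand of the gene, with E2F words, CCAAT boxes and TTTGAA in capitals. *Mcm5* lies on the plus strand at chr8:77633208-77633407, *Mcm6* on the minus strand at chr1:130256283-130256482, *Gins3* on the plus strand at chr8:98157259-98157458, *Pola1* on the minus strand at chrX:90877495-90877694 and *Mcm2* on the minus strand at chr6:88848775-88848974.
Mcm5: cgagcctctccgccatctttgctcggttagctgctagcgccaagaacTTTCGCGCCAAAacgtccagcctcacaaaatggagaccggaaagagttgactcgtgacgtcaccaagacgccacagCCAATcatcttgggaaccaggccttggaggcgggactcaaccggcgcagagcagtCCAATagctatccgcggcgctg
Mcm6: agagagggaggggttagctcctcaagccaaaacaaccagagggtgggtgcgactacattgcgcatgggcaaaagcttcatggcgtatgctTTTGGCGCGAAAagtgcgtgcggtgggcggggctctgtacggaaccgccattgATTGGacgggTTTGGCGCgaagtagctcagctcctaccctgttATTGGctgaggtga
Gins3: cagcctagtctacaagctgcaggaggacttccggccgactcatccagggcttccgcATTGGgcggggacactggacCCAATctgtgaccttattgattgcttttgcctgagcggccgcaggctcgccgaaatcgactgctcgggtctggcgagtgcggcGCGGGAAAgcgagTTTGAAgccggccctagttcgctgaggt
Pola1: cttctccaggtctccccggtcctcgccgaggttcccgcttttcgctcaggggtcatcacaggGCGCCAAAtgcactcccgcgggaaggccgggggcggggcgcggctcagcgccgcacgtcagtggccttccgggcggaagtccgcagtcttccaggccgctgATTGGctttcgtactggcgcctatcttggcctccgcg
Mcm2: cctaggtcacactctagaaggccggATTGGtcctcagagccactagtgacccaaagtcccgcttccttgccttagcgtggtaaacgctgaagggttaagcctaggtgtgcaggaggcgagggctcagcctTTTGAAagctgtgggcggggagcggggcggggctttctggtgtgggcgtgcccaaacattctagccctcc
In *Mcm5* the overlapping E2F words begin 153 and 149 bases before the start, and in *Mcm6* an overlapping pair begins 110 and 106 bases before it and a further word 47 bases before it. The *Gins3* word lies 41 bases before the start, upstream of a TTTGAA at 28 bases, and that of *Pola1* lies 138 bases before it. *Mcm2* holds a CCAAT box at 175 bases and a TTTGAA at 70 bases.

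Female and male MEFs were compared within each genotype. These comparisons share no library, but they share the estimate of the spread, so their calls are not independent. In wild-type MEFs 10 of the 38 genes were higher in female than in male cells (*Rnaseh2a*, *Cdt1*, *Rrm2*, *Fen1*, *Chaf1b*, *Dut*, *Rpa2*, *Pcna*, *Rrm1* and *Mcm5*) and 0 were lower. In KO MEFs 7 were higher (*Rnaseh2a*, *Cdt1*, *Fen1*, *Dut*, *Mcm2*, *Chaf1b* and *Rrm2*) and 0 were lower, and *Cdt1*, *Chaf1b*, *Dut*, *Fen1*, *Rnaseh2a* and *Rrm2* were called in both. Of all genes tested 38.7% were called in wild-type and 38.7% in KO MEFs, and 18.9% were called higher in female cells in each. Called lower were 19.8% of all genes in wild-type and 19.7% in KO MEFs, compared with 0 of the 38. None of the 38 reached the study's thresholds of an adjusted p under 0.01 with an absolute log2 fold change over 1, which 4.54% of all genes reached in wild-type and 3.89% in KO MEFs. Sex cannot be told apart from embryo line or from depth, which was higher in every male library.

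*Rrm2* showed the largest difference in wild-type MEFs, with 273, 309 and 304 CPM in female and 197, 213 and 249 CPM in male cells. The groups did not overlap and the log2 difference was 0.43 ± 0.1 (SE, adjusted p = 0.00791 in edgeR's test). In KO MEFs it had 311, 323 and 293 CPM in female and 233, 232 and 293 CPM in male cells, where male replicate 3 reached the lowest female value and the log2 difference was 0.29. *Rrm1* was apart in wild-type MEFs, at 334 to 367 CPM in female and 256 to 319 CPM in male cells, but overlapped in KO MEFs. *Dut*, which removes dUTP from the nucleotide pool, had 38.6, 45.9 and 46.0 CPM in female and 33.5, 33.0 and 36.4 CPM in male wild-type MEFs. In KO MEFs *Dut* had 49.2, 52.1 and 46.5 CPM in female and 34.0, 36.9 and 44.8 CPM in male cells, so the groups were apart in both genotypes, by 0.34 and 0.35 (log2). Of the 5 genes of nucleotide supply, 3 were called in wild-type and 2 in KO MEFs.

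*Cdt1* had 21.5, 22.9 and 23.4 CPM in female and 19.5, 17.9 and 18.7 CPM in male wild-type MEFs, a log2 difference of 0.27 ± 0.064 (adjusted p = 0.00684 in edgeR's test). In KO MEFs its log2 difference was 0.37 ± 0.064, with 24.1 to 27.6 CPM in female and 18.6 to 20.7 CPM in male cells. Female and male values were apart in both genotypes. *Mcm2*, another licensing gene, had 94.7, 101 and 95 CPM in female and 84.9, 82.8 and 89.2 CPM in male wild-type MEFs. In KO MEFs the values were 101, 113 and 99.9 CPM in female and 84.9, 85.4 and 99.4 CPM in male cells. Its log2 differences were 0.18 (adjusted p = 0.0583 in edgeR's test) and 0.22 (adjusted p = 0.0251), and the groups were apart in both, in KO MEFs by less than 1 CPM. All 8 licensing genes had log2 differences above 0 in both genotypes, from 0.07 to 0.27 in wild-type and from 0.05 to 0.37 in KO MEFs.

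*Rnaseh2a* had the smallest adjusted p in both genotypes. Its values were 27.3, 29.6 and 27.6 CPM in female and 24.5, 23.3 and 23.0 CPM in male wild-type MEFs. With the KO they were 30.5, 30.2 and 29.2 CPM in female and 24.3, 25.1 and 22.6 CPM in male cells. The log2 differences were 0.26 ± 0.053 (adjusted p = 0.00345 in edgeR's test) and 0.32 ± 0.053 (adjusted p = 0.000985). *Fen1* had 39.2, 41.4 and 39.0 CPM in female and 31.0, 31.1 and 33.2 CPM in male wild-type MEFs, a log2 difference of 0.33, and 40.6 to 45.9 CPM in female and 29.8 to 39.2 CPM in male KO MEFs, a difference of 0.31. Its exons share 1909 bases with *Gm10143* on the opposite strand. *Chaf1b* was also apart in both genotypes, at 22.5 to 26.0 CPM in female and 18.4 to 20.3 CPM in male wild-type MEFs, and its log2 differences were 0.32 and 0.24.

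Polymerases, primase and helicase activation held no call in either genotype. The 2 genes lower in every female than in every male wild-type library were *Pola1*, at 34.6 to 37.0 CPM in female and 37.9 to 45.8 CPM in male cells, and *Rpa3*, at 11.1 to 12.2 CPM in female and 12.4 to 13.8 CPM in male cells. Neither passed the test, with log2 differences of -0.19 and -0.14, and 26.4% of all genes were apart in this direction. In KO MEFs *Rpa3* was the 1 gene of the 38 for which this held, compared with 25.7% of all genes. The opposite order, all female values above all male values, was seen for 17 of 38 genes in wild-type MEFs, compared with 25.5% of all genes, and for 6 (*Mcm2*, *Cdt1*, *Fen1*, *Rnaseh2a*, *Dut* and *Chaf1b*) in KO MEFs, compared with 24.5%.

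Log2 differences between the sexes had the same sign in both genotypes for 33 of 38 genes (25 above 0 and 8 below 0), with r = 0.89 across the 38 genes, which are not independent replicates. The medians were 0.076 in wild-type and 0.08 in KO MEFs, compared with -0.005 and -0.004 over all genes tested. The KO median was 0.005 without female KO replicate 2 and 0.178 without male KO replicate 3. The number of calls was lower with DESeq2 in wild-type MEFs and in a fit of the 6 libraries compared in KO MEFs. It also moved with single libraries. In wild-type MEFs it was 4 without female wild-type replicate 2 or male wild-type replicate 1, 5 without female wild-type replicate 3 or male wild-type replicate 2, and 6 without female KO replicate 1 or male KO replicate 2. In KO MEFs it was 2 without female KO replicate 2 or male KO replicate 1, 3 without male KO replicate 2 and 16 without male KO replicate 3. Markers of other cells also differed, in that the summed macrophage markers were 39.2 to 121 CPM in female and 9.09 to 17.4 CPM in male libraries, and 9 of 10 passed the test in wild-type and 10 of 10 in KO MEFs, all higher in female cells. The sums of 7 epithelial markers were 74.6 to 129 CPM in female and 40.8 to 53.7 CPM in male libraries, with 7 of 7 called higher in female cells in wild-type and 2 of 7 in KO MEFs. Skeletal muscle markers were called higher for 5 and 6 of the 8 tested, although their sums overlapped (89.1 to 162 CPM in female and 80.1 to 146 CPM in male libraries), neural markers for 3 and 5 of 6, and endothelial markers for 3 and 1 of 6. Of the 10 fibroblast markers 4 were called lower in female wild-type MEFs, and in KO MEFs 5 were called lower and 1 higher. The part of these cells in the differences was not tested.

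**Figure D5:**
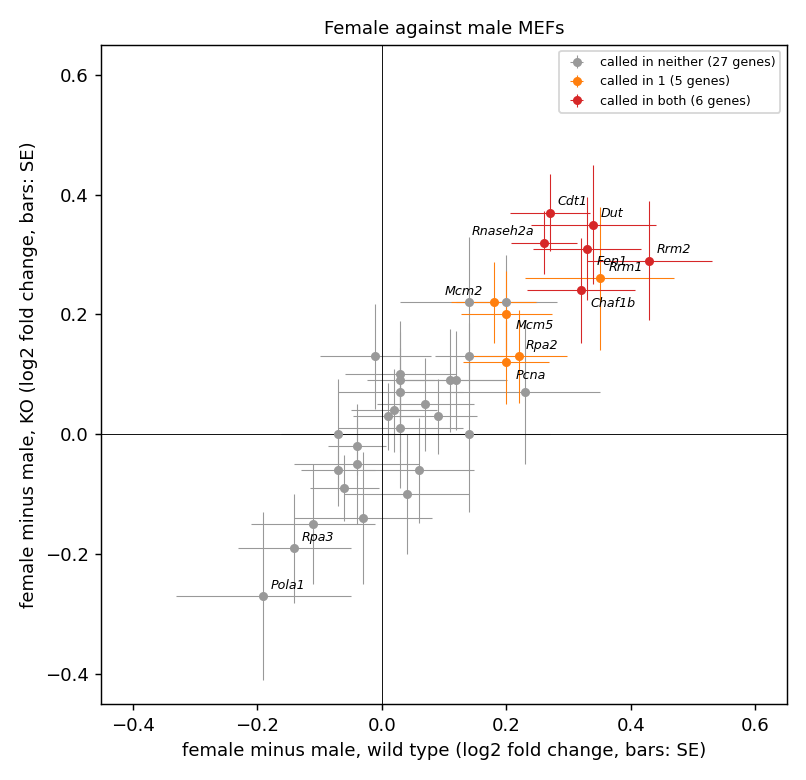
Log2 fold change of female over male MEFs for the 38 DNA replication genes in wild-type (horizontal axis) and KO MEFs (vertical axis); bars are SEs from the fit with 3 libraries per group, red marks the 6 genes called in both, orange the 5 called in 1 genotype, and grey the other 27. Genes called in both lie at the upper right, and *Pola1* (-0.19 and -0.27) lies at the lower left.

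Among the related genes, none passed the test between KO and wild type in either sex. The log2 fold change was above 0 for 33 and 35 of the 41 other replication genes in female and male MEFs, for 20 and 20 of the 20 mitosis genes (medians 0.138 and 0.162), for 19 and 12 of the 23 genes of the E2F and Rb families and S phase cyclins (medians 0.071 and 0.012), and for 2 and 3 of the 7 inhibitors. *Mki67*, the widely used proliferation marker, had 249, 254 and 237 CPM in female wild-type and 262, 306 and 270.0 CPM in female KO MEFs. The male values were 305, 313 and 370.0 CPM in wild-type and 307, 341 and 465 CPM in KO cells. Its highest values by sex were thus in the same libraries as those of the replication genes. The inhibitors did not share 1 pattern. *Cdkn1a*, known as p21, was lowest in those libraries, with 410.0 CPM in female KO replicate 2 against 474 to 510.0 CPM in the other female libraries, and 365 CPM in male KO replicate 3 against 439 to 498 CPM in the other male libraries. *Cdkn2c* (8.26 and 8.78 CPM) and *Cdkn2d* (9.76 and 10.4 CPM), which encode p18 and p19Ink4d, had their highest values of each sex there. *E2f1*, which encodes an activating E2F factor, lay between 26.5 and 32.6 CPM in female and 29.2 and 32.9 CPM in male libraries.

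Between the sexes, 9 of the 41 other replication genes were higher and 5 lower in female wild-type MEFs, and 10 were higher and 5 lower in KO MEFs. *Samhd1*, which degrades deoxynucleotides, had 137 to 157 CPM in female and 105 to 107 CPM in male wild-type MEFs, a log2 difference of 0.48 that was 0.19 in KO MEFs. The origin recognition subunits went in different directions, with *Orc6* higher in female cells (0.43 in wild-type and 0.41 in KO MEFs) and *Orc3* lower (-0.37 and -0.36), and *Pole3*, an accessory subunit of polymerase epsilon, was higher (0.31 and 0.26). Of 23 genes of the E2F and Rb families and S phase cyclins, 5 were higher and 3 lower in each genotype. *Ccne1*, the cyclin that drives entry into S phase, had 77.6, 85.4 and 73.7 CPM in female and 45.5, 45.5 and 55.1 CPM in male wild-type MEFs, a log2 difference of 0.7 in each genotype. *Cdc25a*, a phosphatase that activates cyclin-dependent kinases, was higher (0.39 and 0.34) and *Rbl2*, a relative of Rb, lower (-0.31 and -0.23). *Ccnd1*, a G1 cyclin, was lower in female wild-type MEFs (-0.38) and not called in KO MEFs (0.03), where its levels in female cells were 437 to 495 CPM.

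Of the 7 inhibitors, 2 were higher and 1 lower in each genotype. *Cdkn1c*, known as p57, had 68.5, 70.3 and 74.0 CPM in female and 18.2, 18.4 and 19.2 CPM in male wild-type MEFs, a log2 difference of 1.93, and 55.7 to 70.9 CPM in female and 18.4 to 18.7 CPM in male KO MEFs. It was the 1 gene of these lists past the study's thresholds. *Cdkn2a*, which encodes p16 and p19Arf, was higher as well (0.69 and 0.92), and *Cdkn1b*, known as p27, lower (-0.23 and -0.37). Of the 20 mitosis genes, 1 was higher and 3 lower in wild-type and 1 higher and 2 lower in KO MEFs. *Plk1*, a mitotic kinase, was the gene that was higher (0.27 and 0.29), while *Cenpf* (-0.41 and -0.46) and *Mki67* (-0.42 and -0.41) were lower in both genotypes and *Bub1b*, a checkpoint kinase, passed the test only in wild type (-0.28, adjusted p = 0.0496 in edgeR's test, against -0.25 and 0.0682 in KO MEFs).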

How the data were processed

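RNA-seq libraries of wild-type and *Firre* KO MEFs were made with the TruSeq version 2 kit from total RNA. Per the study's methods and the submitters' processing notes, the authors used Bowtie2 for filtering and mapping and RSEM 1.2.29 for quantification, with mm9 as the build. They deposited unscaled expected counts for each gene. For 13 of the 38 genes some counts are not whole in at least 6 libraries. The C2C12 Hi-C files and the CTCF ChIP-seq samples were not analysed here.

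After rounding, genes kept by filterByExpr were fitted in R 4.3.3 with edgeR 4.0.16 (TMM, quasi-likelihood test). The model had 1 mean for each of the 4 groups, which left 8 residual degrees of freedom. Adjustment was by Benjamini-Hochberg over the 15387 genes tested. A gene was called at an adjusted p under 0.05. CPM used TMM-scaled library sizes, and log2 CPM a prior count of 2. Exon lengths, coordinates and overlaps came from the annotation of NCBIM37 (mm9), in which all 37310 identifiers occur. The procedure was tested on simulated counts of genes that vary independently and change by larger folds than the replication genes. Small shifts shared between genes were not simulated. The precision follows the depth, and the spread between replicates was a common biological coefficient of variation of 0.114.

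Genes were picked for description by a rule, for up to 6 called genes per contrast, the 2 highest and 2 lowest fold changes per KO contrast, the 3 highest and 3 lowest levels, and the 2 widest and 2 narrowest spreads. Some of them are given as ranges or in only some of the groups. From each related list up to 4 called genes are named, with *Mki67*, *Cdkn1a*, *Ccne1* and *E2f1* whatever their values. Other genes were named after their values were seen. The members and lists were chosen with earlier results of these data known. Alternatives were DESeq2 1.42.0, other size factors and filters, fits of the 6 libraries compared, leaving out single libraries, and a block for the replicate number.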

Additional observations from a re-analysis of the deposited data

How the results depend on the processing

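The call of 0 replication genes in the 4 KO comparisons held under DESeq2, DESeq2's size factors, library size alone, either filter on low counts and each library left out. Fits of the 6 libraries compared were made for the female and the male KO comparison and also called 0. All 38 log2 fold changes stayed above 0 in both sexes under the other size factors and filters and under DESeq2, and with 1 library left out 32 to 38 were above 0 in female and 26 to 38 in male MEFs. Of the genes named, *Rrm1* in female MEFs had log2 fold changes between -0.05 and 0.08 with 1 library left out and -0.05 without female KO replicate 2 and male KO replicate 3, and *Rnaseh2a* in male MEFs lay between -0.01 and 0.07. Between the sexes, the calls in wild-type MEFs were 6 with DESeq2 and 4 to 13 with 1 library left out. In KO MEFs they were 3 from the 6 libraries alone, 2 to 16 with 1 library left out, and 11 without female KO replicate 2 and male KO replicate 3, which gave 14 in wild-type MEFs. Leaving out both was chosen after seeing the data. The median pairwise correlation was 0.66 to 0.85 with 1 library left out and 0.49 without both. Beyond fewer samples, the cause of these changes was not tested. The deviations of same-numbered wild-type and KO libraries had an r of -0.164, -0.118 and -0.152 in female and of 0.0966, 0.216 and 0.333 in male MEFs. Not every pair exceeded 0.1, in either sex, and the numbers were not taken to pair the samples, although all male pairs were positive. Male pairs of unlike number ran from -0.288 (wild-type replicate 3 with KO replicate 2) to 0.136 (wild-type replicate 1 with KO replicate 2). With a block for the number within each sex, 1 of all genes tested was called in female and 0 in male MEFs. The replicate block gave 0 calls in each KO comparison, 9 between the sexes in wild-type and 7 in KO MEFs. With 3 libraries per group, the upper 95% limits of single genes ran from 0.18 (log2, *Rfc1*) to 0.44 (*Rfc5*) in female MEFs. In male MEFs they ran from 0.14 (*Rnaseh2a*) to 0.53 (*Cdc6* and *Gins3*).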
